A study of Mus musculus with 6 samples.

Results

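The TNF superfamily was examined in macrophages through 10 of its genes, chosen by name, out of the 16266 genes of the deposited tables. They comprised 6 ligands (Tnf, Tnfsf9, Tnfsf10, Tnfsf12, Tnfsf13b and Tnfsf14), 3 receptors (Tnfrsf1a, Tnfrsf1b and Fas) and the protease Adam17, which cuts Tnf and its receptors from the cell surface. The cells were mouse bone marrow-derived macrophages, grown out of marrow in culture. Total RNA was sequenced from 3 Capns1 knockout (KO) libraries and 3 wild-type (WT) libraries, and both groups had been treated with lipopolysaccharide (LPS) for 24 h. The series' title speaks of a deletion of Capns1 limited to myeloid cells, whereas the sources used here do not name the promoter that drove it, the mouse strain or the animals' age. All values are levels under LPS, since untreated libraries were not analysed here. Whether the replicates are separate animals or cultures is not in the labels, so a p-value here reflects only the spread among these libraries, which may be technical.

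Ligands of the TNF superfamily are mostly made as membrane proteins that act as trimers, either on the cell surface or after release by a protease. Their receptors pass the signal on through adaptor proteins, either of the TRAF type toward NF-kB and MAP kinases or, for receptors with a death domain, also toward caspases. Macrophages exposed to LPS are a main source of Tnf. They shed Tnf and both of its receptors through Adam17.

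The genotype labels of the KO libraries name a different Capns number in each, while the design text names Capns1 for the group. Capns1, the small regulatory subunit of calpains, had 335, 370 and 298 counts in KO libraries and 17055, 18934 and 21331 counts in WT libraries, so each KO library carried the loss. Library totals ranged from 32631163 to 40913819 counts. All 10 macrophage markers examined were present, summing to 33937 to 38979 CPM (counts scaled to a common library total of 1e6) in KO libraries and 35686 to 42960 CPM in WT libraries. Most of that sum was Lyz2, at 24897 CPM in KO and 28413 CPM in WT on average. Of the 10, 0 were called higher and 2 lower in KO. These were Cd14 (646.7 CPM in KO against 809.0 CPM in WT, edgeR adjusted p = 0.0304) and Cx3cr1 (4.89 against 8.83 CPM, 0.00263). Markers of fibroblasts and marrow stroma summed to 410.2 to 485.6 CPM in KO libraries and 197.7 to 232.1 CPM in WT libraries, and 6 of 10 were called higher in KO. KO replicate 2 (second principal component of -25.5, against 12.6 and 10.4 in the other KO libraries) and WT replicate 3 (23.2, against -8.21 and -12.4) stood apart within their groups. A gene is termed called where its adjusted p in edgeR's quasi-likelihood test was under 0.05. Log2 fold changes are KO minus WT.

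Of the 10 genes, 1 was called higher and 2 lower in KO, and all 10 passed the filter on low counts. Across the 12219 genes tested, 14.6% were called, 8.44% higher and 6.21% lower, so 3 of 10 rests on few genes. Tnfsf9 rose, while Tnfsf10 and Tnfrsf1b fell. The median log2 fold change was -0.13, against -0.011 over all tested genes, and the median size of the change was 0.33, against 0.20. KO and WT libraries did not overlap in CPM for 4 of the 10, namely these 3 and Adam17, against 33.6% of all tested genes. The 10 genes and the lists below were chosen with earlier results of these data known. The values set beside all tested genes are therefore descriptive only.

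**Figure D1:**
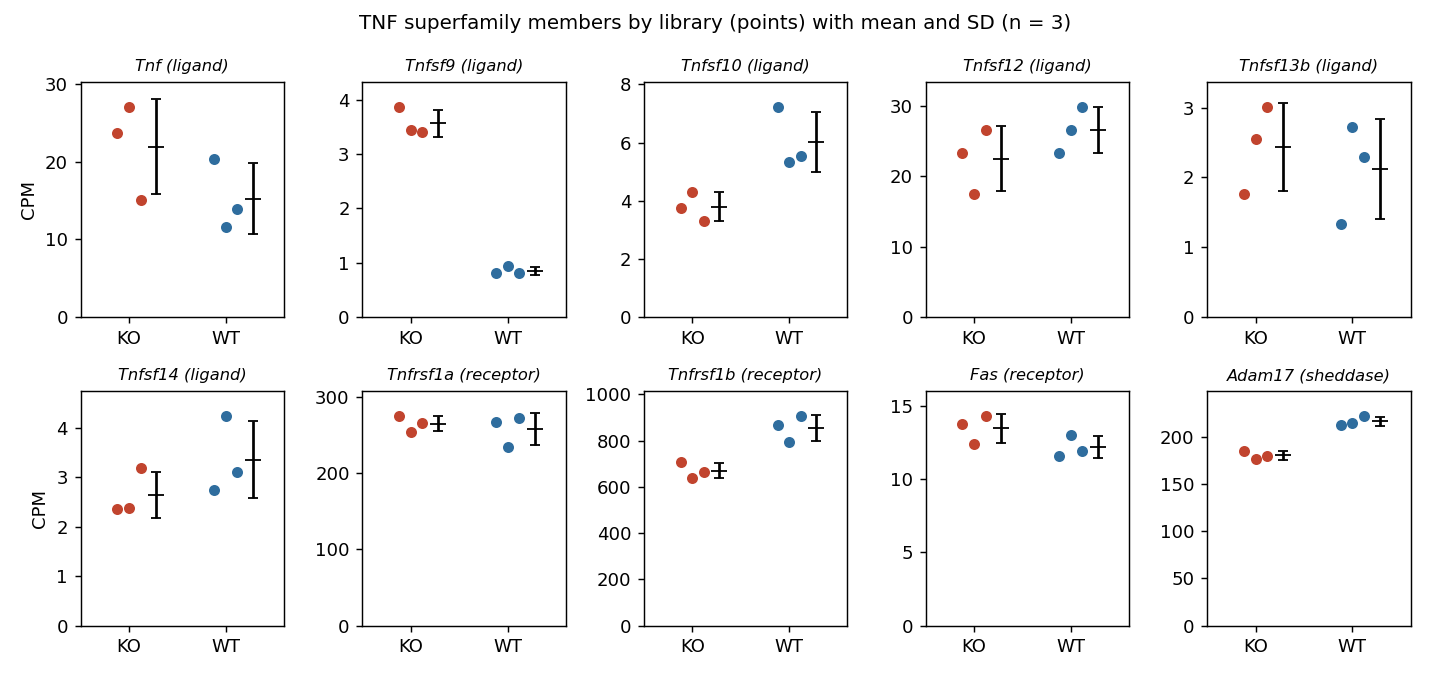
CPM of the 10 TNF superfamily genes in each library (points), with KO left of WT and the mean and SD beside them (n = 3); each panel has its own scale from 0. Tnfsf9 lies at 3.40 to 3.86 CPM in KO and 0.807 to 0.934 CPM in WT, whereas Tnf, Tnfsf12, Tnfsf13b, Tnfsf14, Tnfrsf1a and Fas overlap between groups.

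On the FPKM scale, which divides by gene length and so allows genes to be compared with each other, both Tnf receptors and the protease stood above all 6 ligands, while Fas stood below Tnf and Tnfsf12. Tnfrsf1b was highest in KO and in WT, at 136.1 ± 6.89 FPKM in KO and 173.6 ± 11.2 FPKM in WT (SD, n = 3 each). Tnfrsf1a came next, at 122.9 ± 4.67 FPKM in KO and 119.5 ± 9.67 FPKM in WT, followed by Adam17, at 40.2 ± 0.957 FPKM in KO and 48.2 ± 1.08 FPKM in WT. Tnf and Tnfsf12 held the next 2 places, with overlapping ranges in KO and Tnfsf12 above Tnf in WT, and Fas followed at 5.51 ± 0.407 FPKM in KO and 4.98 ± 0.300 FPKM in WT. The level of Tnfsf12, and so its place in this order, is uncertain for reasons given with that gene below. The remaining ligands averaged between 0.766 and 2.38 FPKM in KO and between 0.565 and 1.80 FPKM in WT. Tnfsf9 was the highest of these 4 in KO and the lowest in WT. In KO, Tnfsf14 overlapped Tnfsf13b and Tnfsf13b overlapped Tnfsf10, and in WT Tnfsf10 overlapped Tnfsf13b.

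Tnf, the founding ligand and a main LPS-induced cytokine, lies on chromosome 17 at 35199367 to 35202007 (GRCm38, the build of all positions here). Tnf stood at 23.7, 27.0 and 15.1 CPM in KO libraries, against 20.3, 11.6 and 13.9 CPM in WT libraries. KO replicate 3 lay below WT replicate 1, so the groups overlapped. The log2 fold change was 0.51 ± 0.24 SE and was not called (edgeR adjusted p = 0.185; two-sided exact permutation test of CPM, p = 0.2, where 3 against 3 cannot go below 0.1). Tnf varied more within groups than most of the 10 genes, with a coefficient of variation of 27.9% in KO and 29.8% in WT, while Adam17 varied by 2.38% and 2.24%. Single libraries moved the log2 fold change of Tnf in both directions, up to 0.77 without WT replicate 1 (edgeR adjusted p = 0.068) and 0.73 without KO replicate 3 (0.067), and down to 0.31 without KO replicate 2 (0.403). It was 0.25 without both KO replicate 2 and WT replicate 3 (edgeR adjusted p = 0.441).

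Over the 6 libraries, the protein-coding genes whose log2(CPM + 1) followed Tnf most closely were Stat6, Hcls1, Ppp5c, Lcp2 and Clec5a, with Pearson correlations of 0.969 to 0.995 among 8969 genes compared. Stat6, a signal transducer of interleukin-4, had 259.6, 265.4 and 241.2 CPM in KO libraries and 250.3, 232.2 and 239.2 CPM in WT libraries, which is the order of Tnf over a much smaller range. None of these 5 was called (edgeR adjusted p = 0.414 to 0.719). These correlations describe 6 libraries that share depth and culture, and the best of so many genes is high by selection.

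Tnfsf9, the ligand of CD137 and a costimulator of T cells, lies on chromosome 17 at 57105287 to 57107758. It had 136, 128 and 111 counts in KO libraries, against 28, 37 and 33 counts in WT libraries. That is 3.86, 3.44 and 3.40 CPM in KO and 0.807, 0.934 and 0.807 CPM in WT, so every KO library was above every WT library. The log2 fold change was 2.04 ± 0.24 SE (4.12-fold, edgeR adjusted p = 2.35e-04), and the exact permutation test gave its smallest possible p of 0.1. Tnfsf9 remained called under all 18 alternatives, including each library left out, at adjusted p of up to 0.00200. Under the filters of at least 1 CPM or 1 FPKM in 3 samples, Tnfsf9 passed only through its KO libraries. It stood at 2.26 to 2.57 FPKM in KO and 0.537 to 0.622 FPKM in WT. Those settings therefore add no separate support. Its change was 1.11 on log2(FPKM + 1), which understates changes of low genes. Of its 32-base words, 12.8% occur in transcripts of other genes, and a noncoding gene lies on the opposite strand.

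The nearest protein-coding genes on either side of Tnfsf9, Tubb4a and the superfamily ligand Cd70, were both below the count filter, with Cd70 at 0 to 4 counts per library. Its receptor Tnfrsf9 was also below the filter, with 14, 3 and 4 counts in KO libraries and 0, 10 and 5 in WT libraries. Over the 6 libraries, the genes most like Tnfsf9 were Lacc1, Apobec3, Bcat1, Alad and the lectin Clec10a (Pearson correlations of 0.997 to 1.00, 8970 genes compared). All 5 were called higher in KO, with log2 fold changes of 0.82 to 2.53. Apobec3, an antiviral cytidine deaminase, for example, stood at 140.3 CPM in KO and 53.8 CPM in WT (edgeR adjusted p = 4.52e-06). For a gene whose groups differ this much, the correlation mainly reads the split between KO and WT.

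Tnfsf10 (TRAIL), a ligand that can trigger apoptosis and is known to be induced by interferon, lies on chromosome 3 at 27317077 to 27339665. It had 3.75, 4.30 and 3.31 CPM in KO libraries, against 7.21, 5.32 and 5.55 CPM in WT libraries. All KO values were below all WT values, and WT replicate 1 was the highest. The log2 fold change was -0.69 ± 0.19 SE (0.621-fold, edgeR adjusted p = 0.0357). The call was lost without WT replicate 1 (adjusted p = 0.146), WT replicate 2 (0.0537), KO replicate 1 (0.113) or KO replicate 3 (0.138) in edgeR, and in limma-trend on log2(FPKM + 0.1) (0.0504) or on genes of at least 1 FPKM in 3 samples (0.0615). The nearest protein-coding gene before it, the cholesterol ester hydrolase gene Nceh1, which lies 71811 bases away, also fell, at 83.7 ± 3.79 CPM in KO and 126.7 ± 15.9 CPM in WT (SD, n = 3). Its edgeR log2 fold change was -0.62 (adjusted p = 0.00326). Ghsr, the nearest protein-coding gene after Tnfsf10, was not found among the genes of the deposited tables.

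Of the receptors of Tnfsf10, 1 was called, and it was higher in KO. Tnfrsf10b, the death domain receptor in mice, lies on chromosome 14. It had 4.57, 4.03 and 4.93 CPM in KO libraries, against 1.82, 1.41 and 1.69 CPM in WT libraries, and the groups did not overlap. It rose by a log2 fold change of 1.44 ± 0.21 SE (2.71-fold, edgeR adjusted p = 0.00105), and it was called under all 18 alternatives. Under the filter of at least 1 FPKM in 3 samples, Tnfrsf10b passed only through KO libraries, so that setting adds no separate support. It stood at 1.27 to 1.55 FPKM in KO and 0.444 to 0.571 FPKM in WT. On log2(FPKM + 1) its change was 0.67. Some 10.9% of its words occur in transcripts of other genes. The mouse decoy receptors Tnfrsf22 (log2 fold change 0.25, edgeR adjusted p = 0.532) and Tnfrsf23 (0.45, 0.142) were not called, except Tnfrsf23 under 2 alternatives.

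Tnfsf12 (TWEAK), a ligand known for roles in tissue repair, lies on chromosome 11 at 69686240 to 69696098. It had 23.3, 17.5 and 26.6 CPM in KO libraries, against 23.3, 26.5 and 29.8 CPM in WT libraries. The groups overlapped, with KO replicate 2 the lowest. The log2 fold change was -0.27 ± 0.15 SE and was not called (edgeR adjusted p = 0.281). Of its words, 47.4% occur in transcripts of other genes, and the annotation places a readthrough gene, Tnfsfm13, on the same strand and an antisense gene, Tnfsf13os, over it. Its value is therefore uncertain.

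Tnfrsf12a (Fn14), the receptor of Tnfsf12, showed one of the clearest changes of the wider family. It had 28.6, 30.7 and 31.5 CPM in KO libraries, against 7.58, 10.4 and 10.1 CPM in WT libraries, with no overlap. The log2 fold change was 1.67 ± 0.14 SE (3.18-fold, edgeR adjusted p = 1.97e-05), and the call held under all 18 alternatives. On the FPKM scale Tnfrsf12a stood at 31.4 ± 1.597 FPKM in KO, above its ligand at 13.3 ± 2.73 FPKM, and at 9.69 ± 1.59 FPKM in WT, below its ligand at 15.7 ± 1.91 FPKM. The level of Tnfsf12 is uncertain, as given above, so its order against Tnfrsf12a is uncertain too. Tnfrsf12a is also expressed by fibroblasts, and the 10 stromal markers had a median log2 fold change of 0.93 in the same libraries, with 6 called higher, from 0.86 for Sparc to 1.91 for Pdgfra. The other 4, Col3a1 (0.27), Lum (0.38), Pdgfrb (0.95) and Lepr (-0.62), were not called (edgeR adjusted p = 0.117 to 0.603). Their part in the rise of Tnfrsf12a was not tested. In bulk RNA, more cells of a type and more RNA per cell cannot be told apart.

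**Figure D2:**
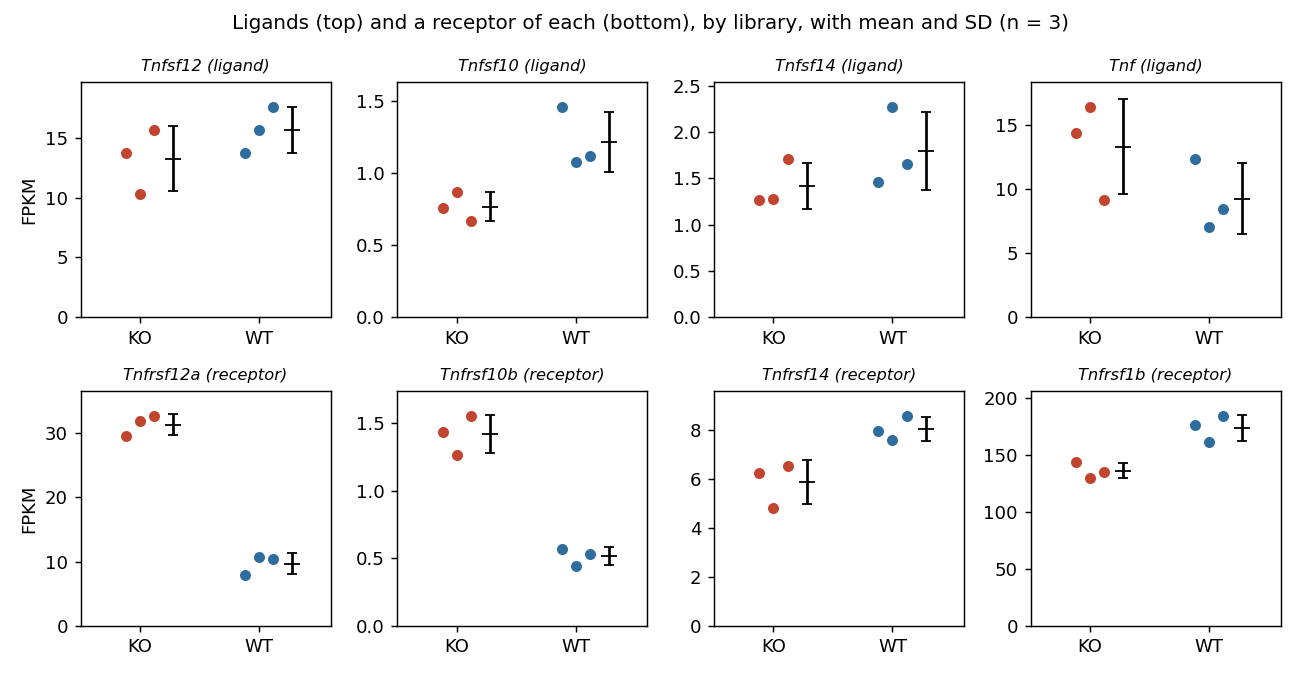
FPKM of 4 ligands (top row) and a receptor of each (bottom row) in each library (points), KO left of WT, with mean and SD (n = 3); each panel has its own scale from 0. Tnfrsf12a and Tnfrsf10b lie higher in all 3 KO libraries, while Tnfsf10, Tnfrsf14 and Tnfrsf1b lie lower. The level of Tnfsf12 is uncertain, as given in the text.

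Tnfsf14 (LIGHT), a ligand that acts on T cells and stroma, lies on chromosome 17 at 57189474 to 57194181. It had 2.36, 2.39 and 3.19 CPM in KO libraries, against 2.74, 4.24 and 3.10 CPM in WT libraries. The groups overlapped, and the log2 fold change of -0.37 ± 0.24 SE was not called (edgeR adjusted p = 0.346). Without WT replicate 2, the highest library, it was -0.16 (edgeR adjusted p = 0.757). Its receptor Tnfrsf14 (HVEM) fell, at 30.8, 23.9 and 32.2 CPM in KO libraries, against 39.3, 37.5 and 42.3 CPM in WT libraries (log2 fold change -0.48 ± 0.12 SE, edgeR adjusted p = 0.0228). That call was lost without WT replicate 1 (0.0686), WT replicate 3 (0.0564) or KO replicate 1 (0.0614), and in the 3 limma-trend settings (0.0503 to 0.0618). Its other receptor, Ltbr, was not called (0.099, edgeR adjusted p = 0.604).

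Tnfsf13b (BAFF), a survival factor for B cells, lies on chromosome 8 at 10006229 to 10036000. It had 1.76, 2.55 and 3.003 CPM in KO libraries, against 1.33, 2.73 and 2.30 CPM in WT libraries. The groups overlapped, with replicate 1 the lowest library in each. The log2 fold change was 0.18 ± 0.31 SE, the largest error of the 10 genes (edgeR adjusted p = 0.768). Of its 3 receptors, Tnfrsf13b was not called (-0.20, edgeR adjusted p = 0.273), and Tnfrsf13c and Tnfrsf17 had 0 to 6 counts per library.

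Both receptors of Tnf were abundant, and they differed from each other in how they stood between the groups. Tnfrsf1b (TNFR2), found mainly on immune and endothelial cells and lacking a death domain, lies on chromosome 4 at 145212368 to 145246870. It had 706.7, 639.5 and 664.6 CPM in KO libraries, against 865.1, 795.6 and 905.0 CPM in WT libraries, with no overlap. It fell by a small margin, with a log2 fold change of -0.37 ± 0.095 SE (0.771-fold, edgeR adjusted p = 0.0211). The call was lost without WT replicate 1 (0.0839), WT replicate 3 (0.0667), KO replicate 1 (0.0603) or KO replicate 3 (0.0881).

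Tnfrsf1a (TNFR1), the widely expressed receptor with a death domain, lies on chromosome 6 at 125349723 to 125362483. It had 274.5, 254.4 and 265.6 CPM in KO libraries, against 266.5, 233.7 and 272.5 CPM in WT libraries. The groups overlapped throughout, and the log2 fold change was 0.017 ± 0.099 SE (edgeR adjusted p = 0.938). The ratio of Tnfrsf1b to Tnfrsf1a in FPKM, a measure chosen after the values were seen, was 1.13, 1.10 and 1.09 in KO libraries, against 1.42, 1.49 and 1.45 in WT libraries. The ratio did not overlap between groups (two-sided exact permutation test, p = 0.1, the smallest possible), and library scaling cancels in it.

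The 250 bases before the RefSeq start (GRCm38.p6) are shown for these receptors, which differed in behaviour, and for Tnf and Tnfsf10. Capitals mark matches, on either strand, to 7 motifs searched in 32851 such windows. These were a relaxed NF-kB form, GGG and CC with any 5 bases between them (in 45.8% of windows), AP-1 TGANTCA (6.75%), an interferon-stimulated response element core, GAAA repeated after any 2 bases (2.98%), a gamma-activated form TTCNNNGAA (7.02%), TATAAA (12.4%), a GC box GGGCGG (32.7%) and an ETS form CCGGAAGT (2.88%). A match describes the letters and is not a site.
Tnfrsf1b (chr4:145246871-145247120, minus strand): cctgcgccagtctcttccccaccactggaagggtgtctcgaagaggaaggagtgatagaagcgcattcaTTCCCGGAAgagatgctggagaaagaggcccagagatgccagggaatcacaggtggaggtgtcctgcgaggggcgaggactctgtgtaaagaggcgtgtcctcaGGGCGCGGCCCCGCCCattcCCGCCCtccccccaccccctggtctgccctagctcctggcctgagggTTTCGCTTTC
Tnfrsf1a (chr6:125349473-125349722, plus strand): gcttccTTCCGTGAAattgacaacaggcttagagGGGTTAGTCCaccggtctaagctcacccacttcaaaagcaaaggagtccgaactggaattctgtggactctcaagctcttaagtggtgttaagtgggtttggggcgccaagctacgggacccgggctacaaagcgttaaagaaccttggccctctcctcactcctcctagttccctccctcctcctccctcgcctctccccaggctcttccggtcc
Tnf (chr17:35202008-35202257, minus strand): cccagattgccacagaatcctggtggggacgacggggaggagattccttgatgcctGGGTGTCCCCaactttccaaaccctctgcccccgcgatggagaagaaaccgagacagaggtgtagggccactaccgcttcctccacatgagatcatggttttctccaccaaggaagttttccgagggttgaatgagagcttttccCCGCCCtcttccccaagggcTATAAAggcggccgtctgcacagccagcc
Tnfsf10 (chr3:27316827-27317076, plus strand): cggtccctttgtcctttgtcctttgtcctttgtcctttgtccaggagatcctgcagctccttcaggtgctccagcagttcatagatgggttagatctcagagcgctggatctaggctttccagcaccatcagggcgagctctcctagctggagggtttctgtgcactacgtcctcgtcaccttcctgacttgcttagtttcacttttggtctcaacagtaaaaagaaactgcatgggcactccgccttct
The Tnfrsf1b window holds overlapping matches to the NF-kB form between positions -77 and -62, the last of which also covers a GC box, a further GC box at -57 to -52, a gamma-activated form at -181 to -173 and an interferon core on the opposite strand at -10 to -1, counted back from the start. The Tnfrsf1a window holds the NF-kB form at -216 to -207 and a gamma-activated form at -244 to -236. The Tnf window holds the NF-kB form at -194 to -185, a GC box at -49 to -44 and TATAAA at -29 to -24, whereas in the Tnfsf10 window none of the 7 was found. Windows were at hand for 8 of the 10 genes, all but Tnfsf9 and Tnfsf12, and 6 of the 8 held the NF-kB form. Of these 6, Tnfrsf1b was called, and Tnf, Tnfsf14, Tnfrsf1a, Fas and Adam17 were not.

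Fas, the death receptor for Fas ligand, lies on chromosome 19 at 34290647 to 34327775. It had 13.8, 12.4 and 14.3 CPM in KO libraries, against 11.6, 13.0 and 11.9 CPM in WT libraries. KO replicate 2 lay below WT replicate 2, and the log2 fold change of 0.12 ± 0.12 SE was not called (edgeR adjusted p = 0.563) under any alternative run. Its ligand, Fasl, was among the other ligands listed but was not found by that symbol among the genes of the deposited tables.

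Adam17, the protease that sheds Tnf, Tnfrsf1a and Tnfrsf1b, lies on chromosome 12 at 21323509 to 21373632. It had 184.8, 176.3 and 179.5 CPM in KO libraries, against 212.5, 214.9 and 221.8 CPM in WT libraries. The groups were tight and did not overlap, yet the log2 fold change of -0.29 ± 0.090 SE (0.820-fold) was just outside the threshold in edgeR (adjusted p = 0.0542). It was called in 6 of 18 alternatives, among them DESeq2 (0.0179), limma-voom (0.0497), limma-trend on log2(FPKM + 1) (0.0436) and log2(FPKM + 0.1) (0.0477), and without KO replicate 2 and WT replicate 3 (edgeR, 0.0316). It was not called with any 1 library left out, with adjusted p of up to 0.169. A protein-coding gene, Iah1, overlaps its end on the opposite strand. Whether counting used strand is not given in the sources used here.

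**Figure D3:**
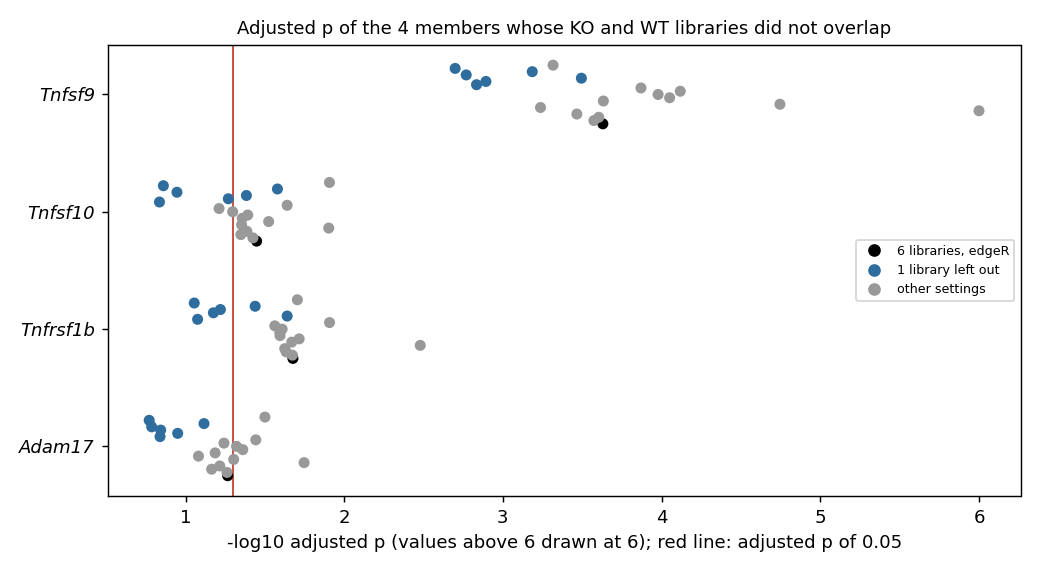
Adjusted p (as -log10) of the 4 genes whose KO and WT libraries did not overlap, in edgeR with 6 libraries (black), with 1 library left out (blue) and in the other settings (grey); the red line marks 0.05. Tnfsf9 lies right of the line in all settings, while Tnfsf10, Tnfrsf1b and Adam17 lie on both sides of it.

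The rest of the superfamily was read from lists of the other ligands and receptors. Among 4 tested ligands of 12 listed, 0 rose and 1, Ltb, fell, which is too few to set against the 14.6% called over all tested genes. Ltb, a subunit of the lymphotoxin heterotrimer, lies 3062 bases from Tnf, and it had 4.996, 3.39 and 5.49 CPM in KO libraries, against 9.22, 8.83 and 8.82 CPM in WT libraries (log2 fold change -0.98 ± 0.18 SE, edgeR adjusted p = 0.00380). It was called lower under all 18 alternatives, although Tnf beside it was not called. Ltb is known from lymphoid cells, and the 7 T and NK cell markers in the tables summed to 0.537 to 1.16 CPM in KO libraries and 2.05 to 2.54 CPM in WT libraries, with Cd3d and Cd3g at 0 to 2 counts in each library. Most of that sum was Nkg7, at 0.312, 0.296 and 0.766 CPM in KO libraries and 1.73, 1.72 and 2.32 CPM in WT libraries, and the other 6 had 0 to 19 counts per library. The 8 B cell markers summed to 33.2 to 39.6 CPM in KO libraries and 29.8 to 32.9 CPM in WT libraries, with Ms4a1 and Cd79a at 0 to 4 counts. Most of that sum was Blnk, at 29.0 CPM in KO and 21.7 CPM in WT on average. Cd79b went the other way, at 6.86 CPM in KO and 9.81 CPM in WT. Neither was called (edgeR adjusted p = 0.0665 and 0.0587), while Ebf1 was called higher, at 1.06 CPM in KO and 0.183 CPM in WT. Ebf1, with 7, 8 and 6 counts in WT libraries, passed the low-count filter only through KO libraries. The part of lymphoid cells in the fall of Ltb was not tested. Lta, on the other side of Tnf, had 0 to 11 counts per library.

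Of the 16 tested receptors among 25 listed, 3 rose and 2 fell, against 8.44% higher and 6.21% lower over all tested genes, with a median log2 fold change of -0.048. Beside Tnfrsf12a, Tnfrsf10b and Tnfrsf14, the osteoclast receptor Tnfrsf11a (RANK) fell (-0.44 ± 0.12 SE, edgeR adjusted p = 0.0268) and Tnfrsf19 rose (2.51 ± 0.71 SE, adjusted p = 0.0360). Tnfrsf19 had 18, 25 and 16 counts in KO libraries and 0, 3 and 8 in WT libraries, so its fold change rests on few counts. Tnfrsf19 passed the low-count filter only through KO libraries. Its call therefore adds no support to the 3 that rose, among which it is counted. Its call was lost in limma-trend on log2(FPKM + 1) (0.0626) and without any one library except WT replicate 3 (0.0797 to 0.117). The Tnfrsf11a call was lost without WT replicate 1 or 3 or KO replicate 1 or 3 (up to 0.122) and in the 3 limma-trend settings (0.0586 to 0.0717). The number of receptors called ranged from 2 to 9 over the alternatives, with 9 when both libraries that stood apart were left out.

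**Figure D4:**
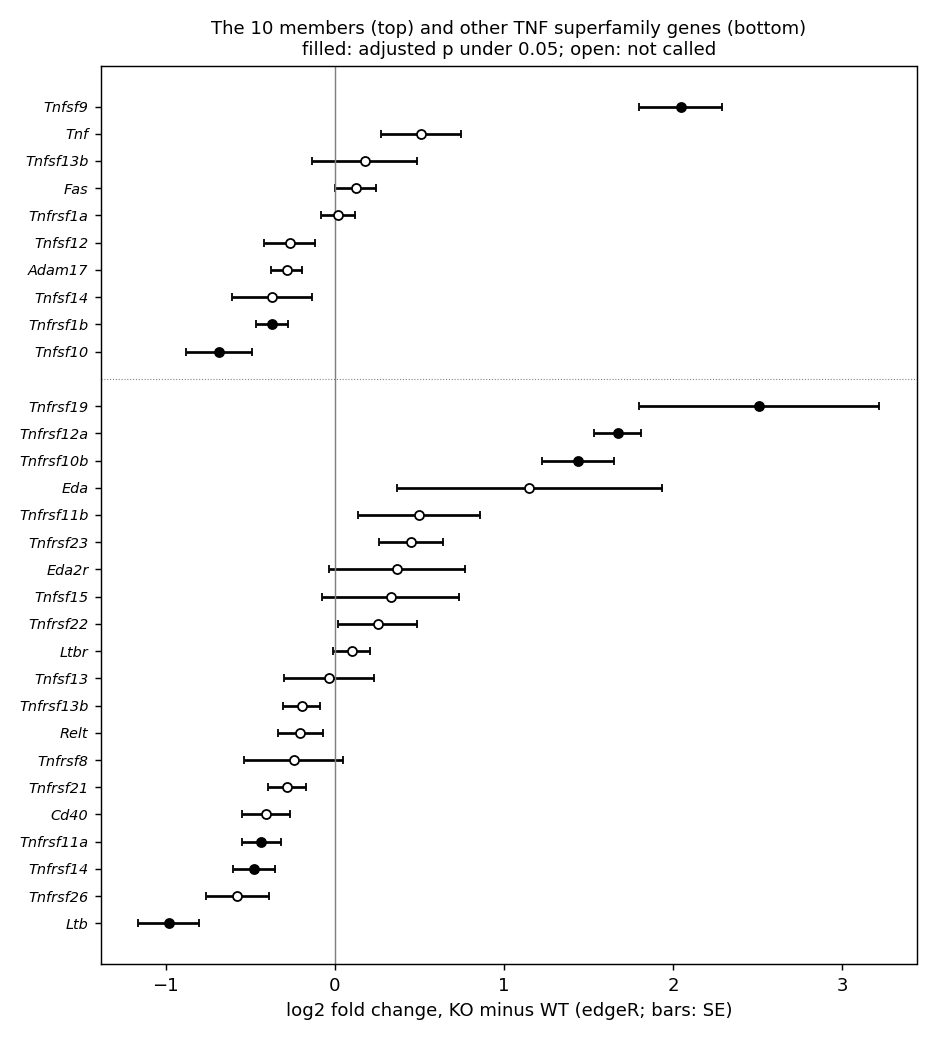
Log2 fold change (KO minus WT, edgeR, with SE bars) of the 10 genes (top) and of the other tested ligands and receptors of the superfamily (bottom); filled points were called. Tnfsf9 (2.04), Tnfrsf19 (2.51), Tnfrsf12a (1.67) and Tnfrsf10b (1.44) lie farthest to the right among filled points, and Ltb (-0.98) and Tnfsf10 (-0.69) farthest to the left.

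Of 30 genes of receptor-proximal signalling, 1 rose and 2 fell, or 10.0% called, which is near the 14.6% of all tested genes, and 11 of 30 did not overlap between groups, against 33.6% of all tested genes. The ubiquitin ligase Traf6 (log2 fold change -0.52 ± 0.12 SE, edgeR adjusted p = 0.0159) and the apoptosis inhibitor Birc3 (-0.43 ± 0.10 SE, adjusted p = 0.0159) fell, and the kinase Map3k8 (0.43 ± 0.11 SE, adjusted p = 0.0267) rose. Each of these calls was lost without WT replicate 1 or KO replicate 1 (edgeR adjusted p = 0.0628 to 0.104). Traf6 (0.0557) and Birc3 (0.0868) also lost theirs without KO replicate 3, Birc3 without WT replicate 2 (0.063) and Map3k8 without WT replicate 3 (0.0707). Birc3 shares 11.3% of its words with other genes. Among 24 feedback and NF-kB target genes, 1 rose and 0 fell, with a median of -0.023. That is 4.17% called, against 14.6% of all tested genes, and 4 of 24 did not overlap between groups, against 33.6%. The gene that rose was Bcl2a1b (0.64, edgeR adjusted p = 0.0363), a survival gene with near-identical copies that share 88.2% of its words, so its value is uncertain. Its call was lost in limma-trend on log2(FPKM + 1) (0.0558), without any one WT library or KO replicate 2 in edgeR (0.0584 to 0.0756), and without both libraries that stood apart (0.0694). The median size of the change in this list was 0.083, against 0.20 over all tested genes. These medians were not matched for expression level, so no conclusion is drawn from the difference.

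Of 16 tested shedding genes, 1 rose and 1 fell, or 12.5% called, near the 14.6% of all tested genes. The pseudoprotease Rhbdf1, which escorts Adam17 to the surface, had 5.90, 4.41 and 5.98 CPM in KO libraries, against 1.44, 3.05 and 3.01 CPM in WT libraries (log2 fold change 1.08 ± 0.27 SE, edgeR adjusted p = 0.0198), a call lost without KO replicate 1 (0.0623) or KO replicate 3 (0.0749). Rhbdf1 was low, at 1.14 FPKM in KO and 0.523 FPKM in WT. The other Rhbdf gene of the list, Rhbdf2, stood at 23.1 FPKM in KO and 22.9 FPKM in WT. Rhbdf2 was not called (log2 fold change -0.0095, edgeR adjusted p = 0.973). The tetraspanin Tspan17, of the group that partners the related protease Adam10, fell (-0.72 ± 0.14 SE, edgeR adjusted p = 0.00545). Of 16 genes of Tnf transcription and mRNA turnover, 12.5% were also called, near the same share. The mRNA decay factor Zfp36l1 fell (-0.83 ± 0.18 SE, edgeR adjusted p = 0.00855) and the ribonuclease Zc3h12a rose (0.46 ± 0.13 SE, adjusted p = 0.0417). Zfp36l1 shares 59.5% of its words with other transcripts and a noncoding gene overlaps it on the opposite strand, so its value is uncertain, and the call of Zc3h12a was lost without WT replicate 1 or 2 or KO replicate 1 or 3 (up to 0.109).

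**Figure D5:**
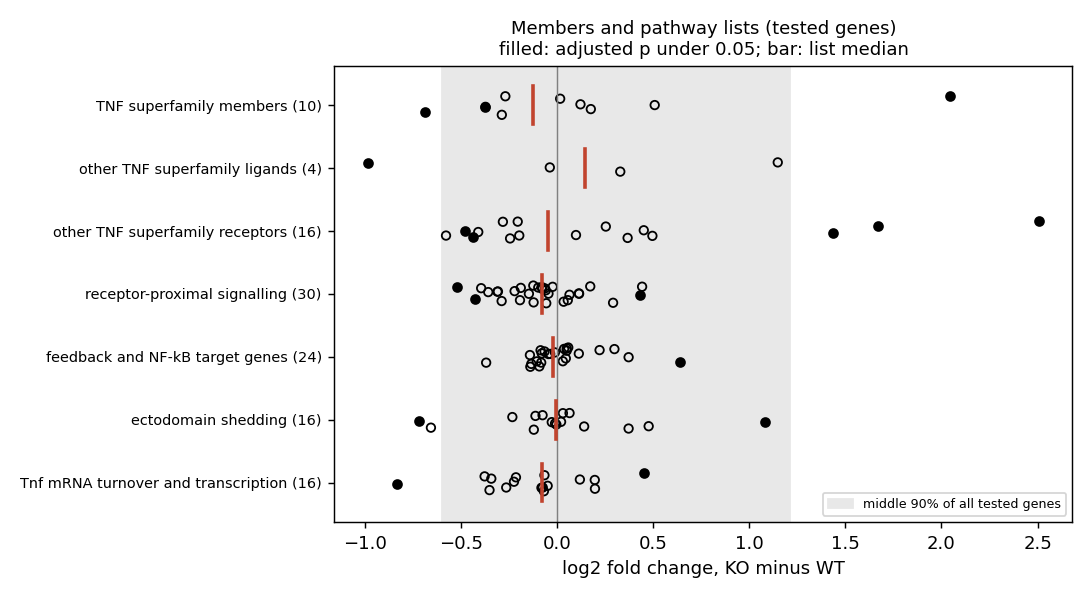
Log2 fold change (KO minus WT, edgeR) of each tested gene of the 10 members and 6 pathway lists, with the number tested in brackets, called genes filled, the list median as a bar and the middle 90% of all tested genes shaded. Medians lie between -0.13 and 0.15, and the 5 genes farthest from 0 are ligands and receptors. Of these, Eda (1.15, edgeR adjusted p = 0.377) was not called and had 1 to 19 counts per library, and Tnfrsf19 had 0 to 25.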

How the data were processed

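Gene-level read counts and FPKM values were both deposited by the authors. HISAT2, HTSeq, fastp and the build mm10 are named in the submitters' processing notes; neither versions nor the strand setting were given in the sources used here. Among deposited FPKM values with 10 or more counts, 99.99% could be rebuilt to within 1% from the count, a single gene length and the column sum. The counts went into edgeR 4.0.16 under R 4.3.3 (filterByExpr, TMM, quasi-likelihood F test), with Benjamini-Hochberg adjustment over 12219 genes. The SE is the log2 fold change over the square root of F. DESeq2 1.42.0 and limma 3.58.1 served as alternatives, and the procedure was tested on simulated data. The simulated libraries included none built to stand apart, unlike those here, so that test does not cover this feature of the data. RefSeq positions (GRCm38.p6, which mm10 also represents) were joined through Entrez identifiers (16189 matched). Shared 32-base words, in either orientation, and overlaps came from GENCODE on GRCm38. The members and lists were chosen with earlier results of these data known. Named from each list were the called genes, at most 6, with the neighbours of called members and the 5 genes most like Tnf and Tnfsf9 (mean CPM of at least 5, without Gm-numbered and Rik symbols); the receptors of member ligands were added after their values were seen. Same-numbered KO and WT libraries did not deviate together in every pair (correlations of -0.098, 0.23 and 0.18), so the numbers were not taken as pairs. Floors and counts cover counting error only.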

Additional observations from a re-analysis of the deposited data

How the results depend on the processing

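Over 18 alternatives, the 10 genes kept direction and side of the threshold in 162 of 180 comparisons, lost a call in 10 and gained one in 6. In 2, a gene near 0 changed sign (Tnfsf13b at -0.066 without WT replicate 1, with a leave-one-out range up to 0.41, and Tnfrsf1a at -0.039 without WT replicate 2, with a range up to 0.072). Between 1 and 3 of the 10 were called with 1 library left out, the lowest number without replicate 1 of either group or KO replicate 3, and 4 without both libraries that stood apart, a setting chosen after the data were seen. Over all genes, calls numbered 1119 to 1741 with 1 library left out (359 to 742 lower in KO), against 1790 (759 lower), and 3186 without both (1681 higher and 1505 lower). The remaining KO and WT libraries then also differ on the second principal component, so that difference cannot be told apart from genotype. With a replicate block, 2526 genes were called, 1164 of them lower, and 4 of the 10, Adam17 among them (adjusted p = 0.0361); the numbers are not known to pair the samples. Calls in the lists ranged from 0 to 11 of 30 for receptor-proximal signalling (3 in edgeR), 0 to 3 of 24 for feedback genes (1), 1 to 8 of 16 for shedding (2), 1 to 6 of 16 for mRNA turnover (2) and 1 to 2 for the other ligands (1). The causes were not tested. Depth limits Tnfsf9 in WT, at 28 to 37 counts.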
